A study of Mus musculus with 34 samples.

Results

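Heat shock and ER chaperone genes were followed in single skin mast cells (MCs) and in Myh11-GFP+ cells of mouse ear skin. The rule named 10 genes, Hspa1a, Hspa1b, Hsp90aa1, Hsp90ab1, Dnajb1, Hspa8, Hsph1, Hspd1, Hspa5 and Hsp90b1. Of these, 9 had a row among the 25852 genes of the 34 deposited tables, and Hspa1b is not analysed here. Levels were transcripts per 10000 transcripts outside the predicted genes named Gm and a number, over cells with more than 1000 transcripts.

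The study asked how talin-1, which links integrins to the actin cytoskeleton, bears on dermal MCs. WT mice were Mcpt5-Cre+/- littermates with intact Tln1 and the R26LSLYFP reporter, and Tln1 KO mice carried Mcpt5-Cre, Tln1fl/fl and the same reporter. Both therefore shared Cre and YFP in connective tissue MCs, no treatment was given, and CD45+ lineage-negative YFP+ cells were sorted from digested ear skin. WT mice 1 to 3 gave 4 libraries each, KO mice 1 and 2 gave 4 each and KO mouse 3 gave 10, where the number after the genotype in the titles was taken as the mouse. The 4 Smoothmuscle libraries held CD45- GFP+ cells of a Myh11 GFP transgenic strain, and since the number of mice behind them is not given, they were treated as 1 sample without a test.

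After filtering, 904 WT MCs (338, 294 and 272 by mouse), 1573 KO MCs (285, 354 and 934) and 330 Smoothmuscle cells remained, with medians of 1889 to 4776 transcripts per cell outside Gm genes. The 10 mast cell markers summed to 635 to 868 per 10000 in the 6 mice and to 0.424 in Smoothmuscle cells. In Smoothmuscle cells the 6 vascular smooth muscle markers summed to 81.9, the 7 pericyte markers to 136 and the 6 fibroblast markers to 187, so markers of all 3 cell types were present under this label. Tln1 stood at 4.51, 5.92 and 6.71 per 10000 in the WT mice and at 5.57, 4.33 and 3.63 in the KO mice. The reads mark 3′ ends and the deleted exons are not stated in the sources used here, so these levels do not check the genotype. The summed macrophage markers ran from 2.87 to 51.2 in WT and from 1.56 to 9.51 in KO mice, the keratinocyte markers from 1.69 to 28.7 and from 0.0641 to 24.8, and the fibroblast markers from 20.1 to 82.7 and from 0.976 to 10.5. Their part in the levels below was not tested. KO mouse 3 library 8 held a barcode with 399798 transcripts outside Gm genes, 43.8% of that library, in which keratinocyte markers stood at 291 and mast cell markers at 27.7 per 10000.

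Molecular chaperones help proteins fold and keep misfolded ones from aggregating. In the cytosol, heat shock factor 1 switches on Hspa1a, Dnajb1, Hsph1 and Hsp90aa1 under proteotoxic stress, while Hspa8 and Hsp90ab1 are made at all times. In the endoplasmic reticulum (ER), the unfolded protein response raises Hspa5 (BiP) and Hsp90b1 (GRP94) when unfolded secretory proteins build up. MCs fill their granules with proteases made in the ER, and the release of single cells from tissue by warm enzymatic digestion is known to induce heat shock and immediate early genes.

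The upstream sequences of 3 members are shown because they carry known response elements of the cytosolic and of the ER arm. Windows of the 250 bases before the transcription start were taken from the RefSeq promoter table (GRCm38.p6), which matched 7 of the 10 named genes with 10 windows. The 2-unit heat shock element GAANNTTC was present in 6.69% of all 32851 RefSeq windows of this length, its 3-unit extension, which adds GAA after a further 2 bases and so contains it, in 0.466%, and the ER stress element, CCAAT and CCACG with 9 bases between them, in 0.113%, each searched on both strands. Capitals mark the 2-unit heat shock element of Hspa1a and the ER stress elements of Hsp90b1 and Hspa5. Hspa1a lies at chr17:34969190-34972156 on the minus strand (build GRCm38, which is mm10), and the bases shown before it are chr17:34972157-34972406. Hsp90b1 lies at chr10:86690209-86705509 on the minus strand, with chr10:86705510-86705694 shown. Hspa5 lies at chr2:34771970-34777547 on the plus strand, and the 29 bases around its ER stress element are chr2:34772020-34772048, within the annotated gene and before the RefSeq start. Each is written 5′ to 3′ on the strand of the gene.
Hspa1a: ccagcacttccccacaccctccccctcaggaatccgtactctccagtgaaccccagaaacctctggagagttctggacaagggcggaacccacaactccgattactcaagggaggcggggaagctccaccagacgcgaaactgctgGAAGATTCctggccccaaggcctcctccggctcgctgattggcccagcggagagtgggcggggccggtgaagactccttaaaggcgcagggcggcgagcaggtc
Hsp90b1: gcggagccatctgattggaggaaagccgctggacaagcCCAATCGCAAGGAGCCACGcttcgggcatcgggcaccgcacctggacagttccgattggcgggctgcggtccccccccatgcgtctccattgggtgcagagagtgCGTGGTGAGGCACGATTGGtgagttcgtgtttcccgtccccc
Hspa5: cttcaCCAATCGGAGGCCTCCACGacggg
Hsp90b1 held 2 ER stress elements, the second on the opposite strand, and Hspa5 held 1. Of the 2 Hspd1 windows, the second held the 3-unit heat shock element. No window of Dnajb1 or Hsph1 held any of these letters, but the other 2-unit order, TTCNNGAA, was not searched over all windows. Both Hsph1 windows held that order, as TTCTCGAA, and so did the second Hspd1 window, as TTCCGGAA. Its share of all windows was not counted. The window of Hspa1b, the neighbouring copy of Hspa1a, was the same at 247 of 250 bases (98.8%) and held the same 2-unit element. Of the 50-base words in the Hspa1a transcript, 58.8% also occurred in Hspa1b, but none in its last 500 bases, where 3′ reads fall; reads matching both copies were discarded upstream. Loci of largely overlapping sequence were also merged upstream, so the Hspa1a row may hold counts of both copies, which cannot be told apart here.

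Hspa1a encodes the stress-inducible cytosolic Hsp70. Its level was 4.04, 1.58 and 0.887 per 10000 in WT mice 1 to 3 and 3.24, 1.87 and 1.76 in KO mice 1 to 3. The highest mouse was WT mouse 1 and the lowest WT mouse 3, a ratio of 4.56, and the genotypes overlapped. Libraries of 1 mouse also scattered, from 0.496 to 3.89 over the 10 libraries of KO mouse 3, and the 30 MC libraries ran from 0.495 to 6.67 with a median of 1.33.
Hsp90aa1, the stress-inducible cytosolic Hsp90, stood at 15.2, 11.6 and 12.4 in WT and at 15.8, 16.3 and 9.24 in KO mice. Hsp90ab1, the constitutive Hsp90, stood at 14.8, 13.7 and 13.9 in WT and at 16.2, 18.0 and 13 in KO mice. For both genes KO mouse 3 was the lowest of the 6 mice and KO mouse 2 the highest, so the KO mice spanned the WT mice. KO mouse 3 also had the lowest share of transcripts in Gm genes (14.2%, against 36.7 to 58.0% in the other mice). Over the 30 libraries, Spearman's rho between Hsp90aa1 and the Gm share was 0.70, and 0.22 once each mouse's mean was taken off. It was 0.57 and -0.27 for Hsp90ab1, and -0.52 and -0.30 for Hspa8.
Hspa8, the constitutive Hsc70, was 4.36, 4.47 and 3.32 in WT and 1.67, 3.51 and 4.72 in KO mice. KO mouse 1 lay below the other mice, with libraries from 0.893 to 2.66, and KO mouse 3 was the highest of all. Dnajb1, an Hsp40 that delivers clients to Hsp70, was 3.31, 4.33 and 3.83 in WT and 2.71, 3.53 and 3.02 in KO mice, so that 2 KO mice lay below the lowest WT mouse. Hsph1, an Hsp110 that exchanges the nucleotide of Hsp70, was low throughout, at 0.682, 0.401 and 0.243 in WT and 0.487, 0.620 and 0.411 in KO mice. Hspd1, the mitochondrial Hsp60, was 0.994, 0.732 and 0.472 in WT and 0.846, 0.798 and 0.997 in KO mice, with overlapping groups.
In the ER, Hspa5 was 7.16, 8.31 and 7.41 in WT and 8.72, 8.10 and 5.74 in KO mice. Hsp90b1 varied least between mice, from 2.20, 1.73 and 1.77 in WT to 1.69, 1.88 and 2.08 in KO, with a highest-to-lowest ratio of 1.30. These values count 3′ ends and order nothing between genes, and the transcripts of a sum cannot tell fewer expressing cells from less RNA per cell.

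**Figure D1:**
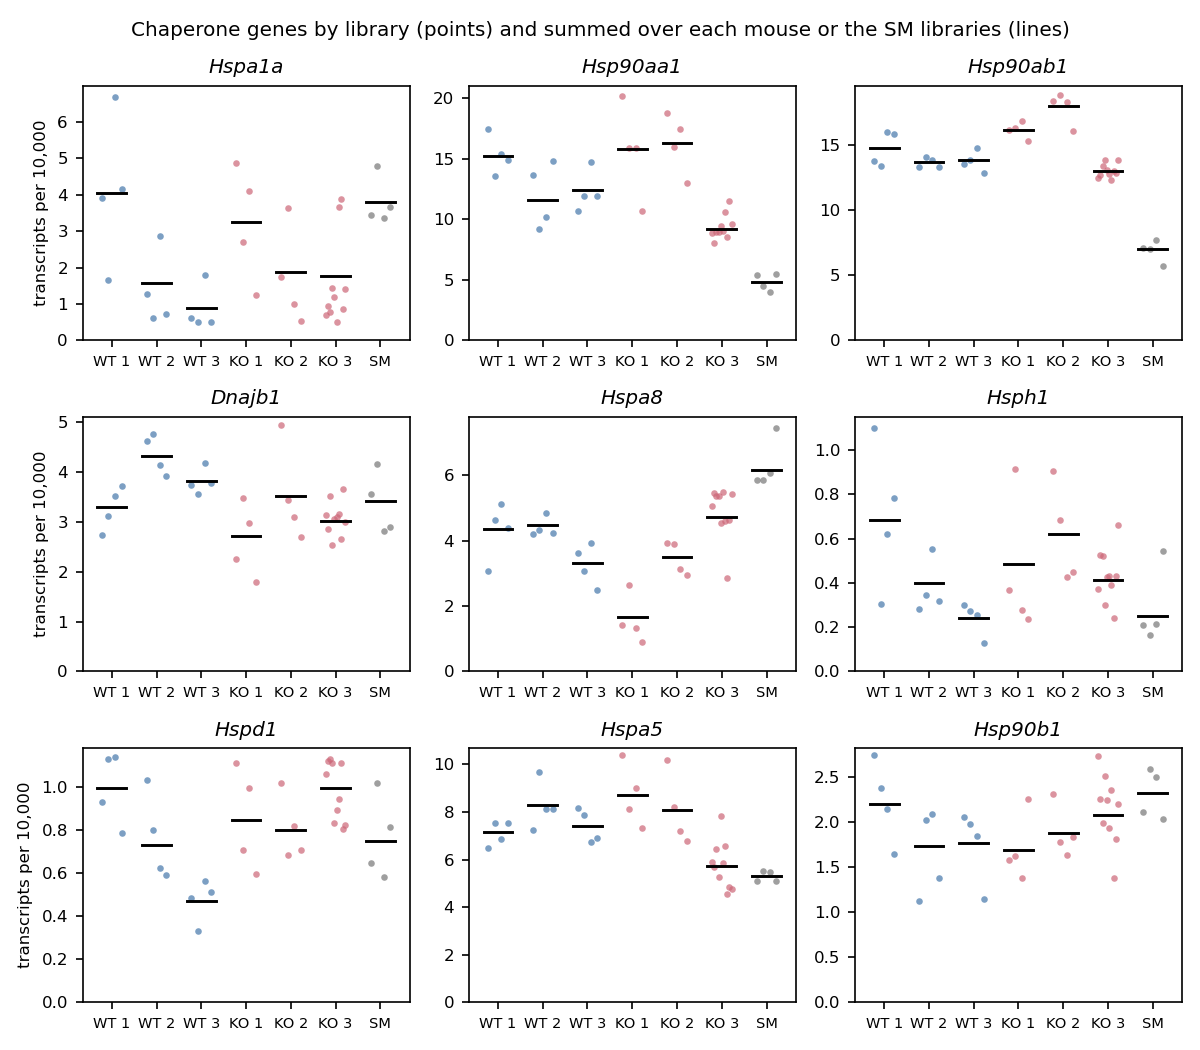
Level of each of the 9 genes (transcripts per 10000 outside Gm genes, vertical axis from 0, own scale per gene) in WT mice (blue), Tln1 KO mice (red) and Smoothmuscle cells (SM, grey); points are libraries and lines the sum over a mouse or over the SM libraries. WT and KO mice overlap for every gene, Hspa1a libraries scatter from 0.495 to 6.67 among MCs, and the SM libraries lie below the MC libraries for Hsp90aa1 and Hsp90ab1.

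Between KO and WT mice, no member differed detectably. With limma on log2 levels of sums per mouse (n = 3 mice against 3), 0 of 9 members and 0 of 8601 genes tested passed an adjusted p of 0.05 (0% called). At an unadjusted p under 0.05 there were 497 genes (5.78%) and no member, and voom weights also called 0 genes, with 530 at that unadjusted p. Among all genes 11.6% had KO and WT mice that did not overlap, and among the members 0 of 9.
Among the members, Hspa8 had the log2 difference farthest below 0, with 4.05 ± 0.636 in WT and 3.30 ± 1.54 per 10000 in KO (SD, n = 3 mice each; limma log2 difference -0.41 ± 0.34 SE, adjusted p = 0.887). For Dnajb1 the means were 3.82 ± 0.511 and 3.09 ± 0.418 (log2 difference -0.31 ± 0.19 SE, adjusted p = 0.871), and its exact two-sided permutation p of 0.200 compares with a smallest possible p of 0.10. For Hspa1a the means were 2.17 ± 1.66 and 2.29 ± 0.822, with a limma log2 difference of 0.30 ± 0.47 SE (adjusted p = 0.952). Its 95% interval, -0.74 to 1.35, left room for more than a doubling, and the log2 difference was -0.20 without WT mouse 3 and 0.89 without WT mouse 1. The intervals were narrower for the ER genes, -0.50 to 0.42 for Hspa5 and -0.43 to 0.41 for Hsp90b1. The other members had adjusted p of 0.894 to 0.988 in the same fit, and log2 differences of 0.04 (Hsp90aa1), 0.14 (Hsp90ab1), 0.29 (Hsph1) and 0.32 (Hspd1).
Mice fell into 2 sets by the transcripts found in barcodes that their library did not use. In WT mouse 1 and KO mouse 1, blood and liver genes made 208 and 194 per 10000 of these transcripts, against at most 0.526 in the other mice. Hspa1a was highest in these 2 mice, and its log2 ratio of KO over WT was -0.32 between them and 0.56 among the other 4 mice. That of Hspa8 was -1.39 between them and 0.08 among the other 4, and without KO mouse 1 the fitted log2 difference was 0.02, so its lower KO mean rested on that mouse. Dnajb1 gave -0.29 and -0.32. With these sets as a block, 2 genes and no member passed, and member adjusted p ran from 0.779 to 0.995 in limma.

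No gene of 9 lists of chaperone, stress and immediate early genes was called between genotypes in the same limma fit. That fit called 0 of all 8601 genes tested, so this count is not particular to the lists. Of the Hsp70 and Hsp40 partners, 14 of 18 listed genes were tested and 8 of them had a log2 difference over 0, around a median of 0.01 against -0.03 for all genes. Dnaja1 was 4.90 ± 1.62 in WT and 5.37 ± 1.03 in KO (SD, n = 3), Dnajb6 4.66 ± 0.534 and 4.66 ± 0.460, and Bag3, which couples Hsp70 to autophagy, 2.43 ± 0.260 and 2.48 ± 0.397. Dnaja2 and Hspa14 had the lowest unadjusted p of that list, with adjusted p of 0.871 and 0.885 in limma.
All 10 Hsp90 co-chaperones were tested, with a median log2 difference of -0.24. Ptges3 was 1.03 ± 0.170 in WT and 1.12 ± 0.316 in KO, Cdc37, which brings kinases to Hsp90, 0.851 ± 0.186 and 0.700 ± 0.219, and Stip1 0.678 ± 0.111 and 0.729 ± 0.104. Fkbp4 and Ahsa1 came closest to the threshold, at adjusted p of 0.863 and 0.885 in limma. Of the 8 subunits of TRiC, the chaperonin that folds actin and tubulin, 1 had a log2 difference over 0 (median -0.29). Among all 8601 genes tested, 3983 had one over 0. Cct4 was 1.37 ± 0.395 and 0.847 ± 0.209, with limma adjusted p of 0.859. For Cct6a (1.26 ± 0.199 and 0.984 ± 0.118) and Cct2 (1.17 ± 0.214 and 0.986 ± 0.119) the adjusted p were 0.871 and 0.900, and Tcp1 gave 0.863. The 8 mitochondrial chaperones had a median of -0.14, with limma adjusted p of 0.879 for Hspe1, the Hsp10 partner of Hspd1, 1.000 for Hspa9 and 0.881 for Lonp1.
For the ER list, 16 of 18 genes were tested (median -0.04). P4hb was 2.59 ± 0.249 in WT and 2.75 ± 0.234 in KO, Calr 2.01 ± 0.202 and 2.03 ± 0.460, and Canx 1.63 ± 0.0400 and 1.63 ± 0.136. Txndc5 (limma adjusted p = 0.859) and Ero1lb (0.863) had the lowest p of the list. Of the unfolded protein response and degradation genes, 12 of 16 were tested (median -0.15), and the transcription factor Atf4 was 6.81 ± 1.49 and 6.62 ± 0.377. Ppp1r15a, Herpud1, Syvn1 and Derl1 had limma adjusted p of 0.975, 0.932, 0.871 and 0.876. Only 2 of 6 small heat shock proteins (Hspb1 and Hspb7, adjusted p = 0.966 and 0.926 in limma) and 2 of 4 heat shock factor genes (Hsf1, 0.990, and Hsbp1, 0.981) were abundant enough to be tested, and Hspb8 and Hsf2 were not. All 17 immediate early genes were tested (median 0.08), among them Jund, Jun and Klf6 at limma adjusted p of 0.945, 0.955 and 0.898, and Atf3 and Btg2 at 0.814 and 0.871.

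The Smoothmuscle cells carried fewer cytosolic Hsp90 transcripts and more Hspa8 than MCs. Hsp90aa1 was 4.81 per 10000 in Smoothmuscle cells and 11.6 over all MCs, a 2.42-fold higher MC level (95% counting interval 2.24 to 2.61), and Hsp90ab1 was 7.02 and 14.2, 2.02-fold higher in MCs (1.89 to 2.15). In both genes the 4 Smoothmuscle libraries, at 3.96 to 5.51 and 5.69 to 7.70, lay below all 6 MC mice, whose lowest levels were 9.24 and 13. Hspa8 was 6.17 against 4.18, a Smoothmuscle-to-MC ratio of 1.48 (1.37 to 1.59), and its libraries at 5.86 to 7.46 lay above the highest mouse at 4.72. Hspa5 was 5.31 against 6.80, a ratio of 0.781 (0.724 to 0.842), with libraries of 5.10 to 5.51 just under the lowest mouse at 5.74 but inside the range of that mouse's own libraries, which began at 4.57.
Among all 9811 genes compared, 21.4% had Smoothmuscle libraries above all mice and 20.4% below, and of the 9 members 1 was above and 3 below. With a 2-fold limit 21.3% of genes were higher and 21.7% lower in Smoothmuscle cells, and of the members 2, the cytosolic Hsp90 genes, were lower. Both lost that limit with all genes in the denominator, at ratios of 0.527 for Hsp90aa1 and 0.631 for Hsp90ab1, and Hsp90ab1 also lost it without some single libraries or mice, at up to 0.515. The counts of members thus lay near the share of all genes. Intervals cover counting error alone, and genotype, sort, strain and cell type differ together between these samples and cannot be told apart.
Dnajb1 (ratio 1.04, interval 0.943 to 1.14), Hspd1 (0.839, 0.681 to 1.03), Hsp90b1 (1.18, 1.04 to 1.32) and Hsph1 (0.553, 0.382 to 0.777) had libraries that overlapped the mice. Hspa1a did too, at 3.79 against 2.01 over all MCs, a ratio of 1.88 (1.71 to 2.07), with libraries of 3.35 to 4.79 and mice of 0.887 to 4.04.

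**Figure D2:**
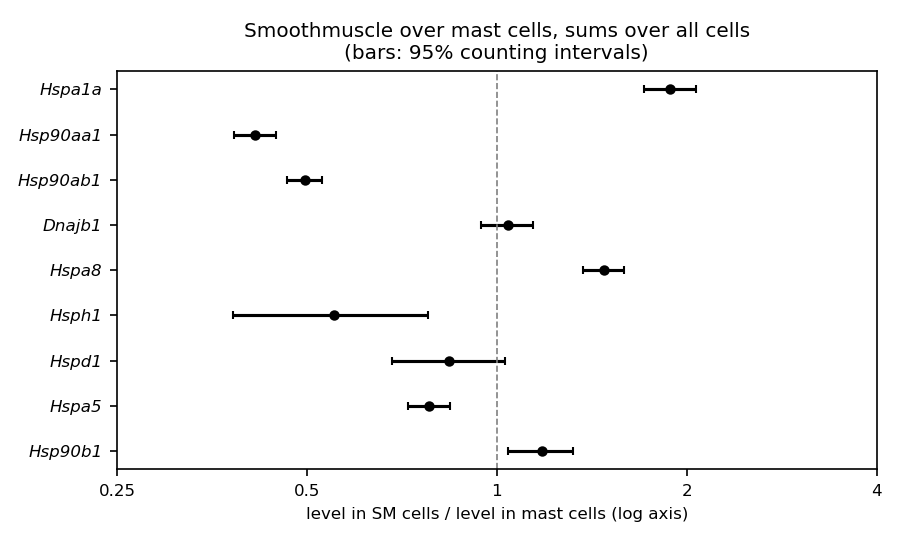
Ratio of the level in Smoothmuscle (SM) cells to that in MCs for each gene (horizontal log axis, sums over all cells); points are ratios, bars 95% counting intervals, and the dashed line marks a ratio of 1. Hsp90aa1 (0.414) and Hsp90ab1 (0.496) lie lowest, and Hspa1a (1.88) and Hspa8 (1.48) highest.

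Of the 9 lists, small heat shock proteins had the largest share outside the mice, with 4 of 6 above all mice in Smoothmuscle cells and a median log2 ratio of 2.47, against -0.07 for all genes. Beside this and the list counts that follow, 21.4% of all 9811 genes compared had all 4 libraries above all mice and 20.4% below. The list counts use the same rule. Hspb8, which acts with Bag3, was at 0.597 in Smoothmuscle cells and at 0 to 0.314 in the MC mice. Hspb1 was at 2.85 (libraries 1.81 to 4.47) with mice at 0.0858 to 1.88, so its ranges touched, and Hspb7 at 0.222 overlapped. Of 15 cytosolic Hsp70 partners compared, 5 lay below all mice and none above, among them Dnaja1 (2.96 against 3.46 to 6.65), Dnajb6 (1.68 against 4.18 to 5.27) and Bag3 (1.71 against 2.08 to 2.87).
The ER list split evenly, with 2 of 16 above and 2 below. P4hb was lower in Smoothmuscle cells (1.96 against 2.36 to 2.98) and Ero1lb, an ER oxidase, nearly absent (0.0208 against 0.161 to 0.335), while Txndc5 was higher (0.444 against 0.0934 to 0.266). Of 13 unfolded protein response and degradation genes compared, 3 were below all mice and 1 above. Atf4 (3.72 against 5.13 to 8.00) and Herpud1 (0.403 against 1.45 to 1.71) were among those below. No TRiC, mitochondrial or heat shock factor gene compared had its 4 Smoothmuscle libraries all above or all below the mice. Of the Hsp90 co-chaperones only Cdc37 did (1.14 against 0.526 to 0.959). Summed levels could still lie above the mice, as for Hspa9 (1.46 against 0.815 to 1.21), Hspe1 (1.35 against 0.849 to 1.26) and Ptges3 (1.58 against 0.855 to 1.48). Of 17 immediate early genes, 6 were below, including Jun (9.78 against 24.2 to 40.8), Jund (7.03 against 25.2 to 45.3) and Klf6 (5.35 against 16.0 to 26.3), and 3 were above, including Atf3 (6.43 against 0.484 to 2.36) and Btg2 (8.78 against 0.0255 to 0.480).

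The spread of Hspa1a over cells differed between the sorts. In MCs a few cells carried nearly all of it: the highest 10% of cells held 93.7, 87.3 and 100% of Hspa1a transcripts in WT mice and 93.3, 95.9 and 88.6% in KO mice. The 100% of WT mouse 3 is fixed by its counts, since 244 of its 272 cells held none, and in WT mouse 2 a single barcode rich in keratinocyte markers held 48.0%. In KO mouse 2 a single cell held 50.5%, and in KO mouse 3 a barcode of 399798 transcripts held 34.8%. In Smoothmuscle cells they held 40.0%. The highest 10% of MCs held 31.5 to 40.5% of Hsp90aa1 and 36.9 to 49.5% of Hspa5 transcripts, and in Smoothmuscle cells 43.5 and 39.8%. Among other members of low count, the highest 10% of MCs held 68.8 to 100% of Hsph1, 48.4 to 56.9% of Dnajb1 and 49.3 to 90.9% of Hspd1. The highest 10% of Smoothmuscle cells held 100, 53.5 and 56.5% of these genes. Low counts raise this share by sampling, and that part was not tested. No test was run, since the Smoothmuscle libraries are 1 sample.
After each cell was thinned to 1000 UMIs outside Gm genes, Hspa1a was found in 9.88% (exact 95% binomial interval 6.50 to 14.2), 9.92% and 5.61% of cells in WT mice and in 9.17%, 4.05% and 6.61% in KO mice. In Smoothmuscle cells it was found in 31.3% (26.1 to 36.8). Thinning left out 85, 32 and 76 WT cells, 45, 33 and 11 KO cells and 23 Smoothmuscle cells. Without thinning the shares were 16.6, 18.0 and 10.3%, 16.1, 12.7 and 21.3%, and 64.8%. Hsp90aa1 showed the opposite order, in 57.9 to 73.5% of thinned MCs by mouse and 32.2% of Smoothmuscle cells. Hspa5 was found in 41.5 to 52.9% and 39.1%.
Barcodes that a library did not use also held transcripts, whose source was not tested. In the MC mice 0.785 to 1.68% of unused barcodes had an Hspa1a transcript, or 0.00785 to 0.0189 per barcode against 0.228 to 1.04 per kept cell. In the Smoothmuscle libraries 18.1% of 376 unused barcodes had one (81 transcripts). Its level there was 18.8 per 10000 (interval 15.0 to 23.4), above the 3.79 of the kept cells in all 4 libraries, where it ran from 15.4 to 23.5. Per barcode, that was 0.215 against 1.65 in a kept Smoothmuscle cell, at medians of 95 and 3915 transcripts. The part of such transcripts in the wide spread of Hspa1a over Smoothmuscle cells was not tested. Hspa8 went the other way, at 2.09 in unused barcodes and 6.17 in Smoothmuscle cells.

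**Figure D3:**
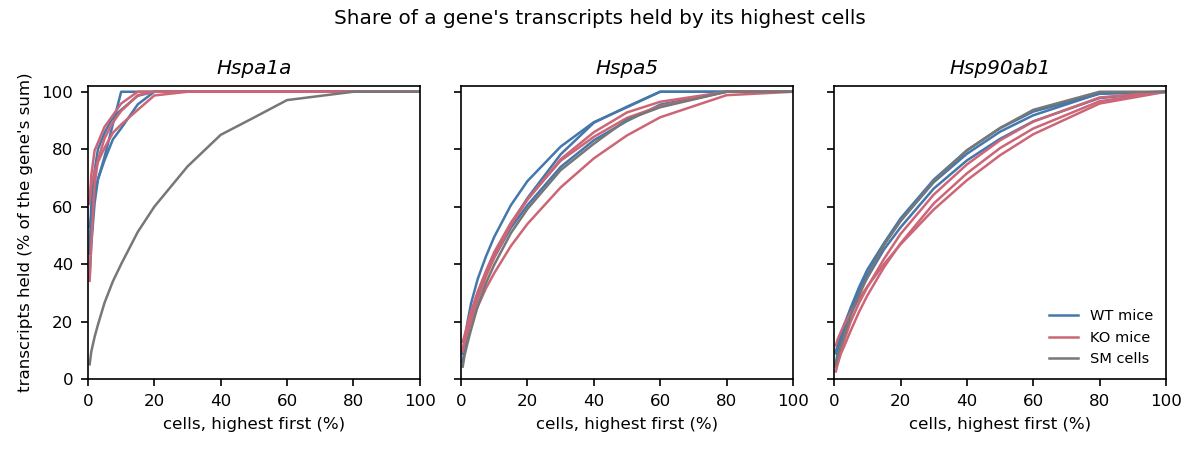
Cumulative share of a gene's transcripts (vertical axis, %) held by its highest cells (horizontal axis, % of cells) for Hspa1a, Hspa5 and Hsp90ab1 in WT mice (blue), KO mice (red) and Smoothmuscle (SM) cells (grey). For Hspa1a the MC curves reach 87.3 to 100% at 10% of cells while the SM curve is at 40.0%, and for the other genes the curves run together.

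**Figure D4:**
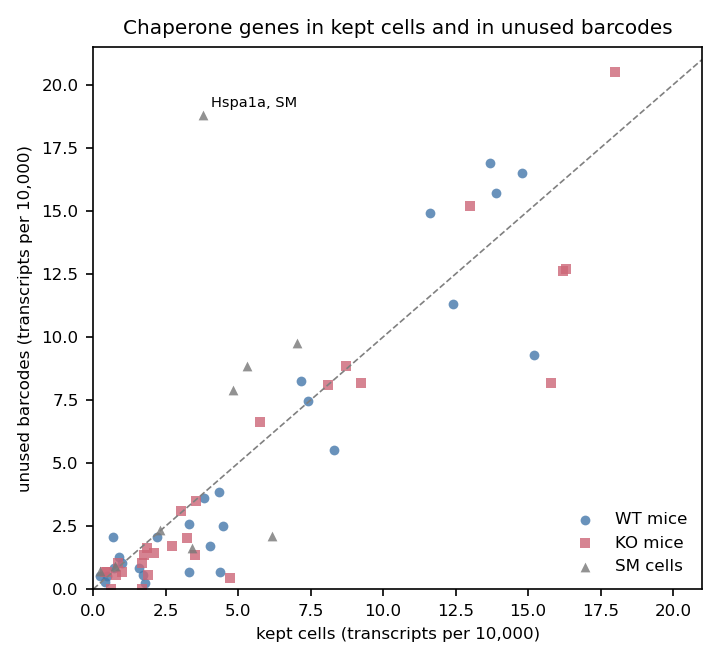
Level of each member (transcripts per 10000 outside Gm genes) in unused barcodes (vertical axis) against kept cells (horizontal axis), with 1 point per gene and WT mouse (blue circles), KO mouse (red squares) or Smoothmuscle (SM, grey triangles); the dashed line marks equal levels. Hspa1a of the SM libraries, at 18.8 against 3.79, stands far above the line.

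Single MCs reached high Hspa1a counts in both genotypes. Leaving out barcodes of over 30000 transcripts, the highest cell held 95.1 Hspa1a transcripts in WT mouse 1, 112 in KO mouse 2 and 169 in KO mouse 3, and these cells held 764, 542 and 762 transcripts of mast cell markers and none of keratinocyte markers. The highest cells of WT mice 2 and 3 held 7.01 and 14, and of KO mouse 1 48.3. The deepest barcode of KO mouse 3 held 321, which was 34.8% of that mouse's Hspa1a, and that of WT mouse 2, also rich in keratinocyte markers (266 per 10000), held 86.9, or 48.0%. Without its highest barcode, the level fell from 1.76 to 1.25 in KO mouse 3, from 1.58 to 0.888 in WT mouse 2 and from 1.87 to 0.931 in KO mouse 2.

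To describe which genes were high in the same cells, the 2% of MCs with the highest level of a member were set against the other MCs of the same mouse, among cells with at least 1000 transcripts outside Gm genes (47 cells per member over 6 mice). These cells were chosen by measured values and the comparison was chosen after the data were seen, so the values are descriptions without a test. The lowest chosen and the highest other cell stood at 50.6 and 28.5 Hspa1a per 10000 in WT mouse 1, and at 8.06 and 8.04 in KO mouse 3. Chosen cells could be shallow. For Hspa1a in WT mouse 3 their median was 1115 transcripts outside Gm genes against 2487 in the others. There the lowest chosen cell stood at 8.97 per 10000, which takes few UMIs at that depth. Cells highest in Hsp90aa1 or Hsph1 had a lower median depth than the others in every mouse, for example 1778 and 1928 against 3392 in WT mouse 2.
The cells highest in Hspa1a were also high in Hsp90aa1, at 52.4, 16.6 and 29.1 per 10000 in WT mice and 56.6, 36.8 and 17.3 in KO mice, against 13.9, 11.1 and 12 and 14.5, 15.7 and 9.11 in the other cells. All 6 mice had the higher level in the chosen cells, and the mean over mice was 34.8 ± 17.1 against 12.7 ± 2.44 (SD). Hspa8 was higher in 6 of 6 mice as well (7.17 ± 3.19 against 3.67 ± 1.14), as was Dnaja1, an Hsp40 (14 ± 9.26 against 5.00 ± 1.07). Hsp90ab1 was higher in 5 mice (21.9 ± 10.4 against 14.6 ± 1.75), Dnajb1 in 4 (5.04 ± 2.03 against 3.46 ± 0.536) and Hsph1 in 3 (1.79 ± 2.09 against 0.447 ± 0.130). Of the immediate early genes, Fos was higher in 4 mice, at 54.1 ± 39.1 against 17.5 ± 4.34, and lower in WT mice 2 and 3.
Among the ER genes, Hspa5 was 6.43 ± 1.85 in the cells highest in Hspa1a and 7.65 ± 1.12 in the others, higher in 1 of 6 mice, and Hsp90b1 was 1.99 ± 0.766 and 1.87 ± 0.208, higher in 3. After thinning all cells to 1000 UMIs, Hspa5 was 10.5 ± 7.20 against 7.17 ± 1.07 and higher in 4 mice, and Hsp90b1 was 4.51 ± 6.21 against 1.60 ± 0.278 and higher in 4, so both values depended on that step. In the cells highest in other cytosolic members Hspa5 was 10.2 ± 3.11 against 7.56 ± 1.09 for Hsph1, higher in 6 of 6 mice, 11.1 ± 6.54 against 7.53 ± 1.06 for Hspa8, higher in 4, and 10.1 ± 3.79 against 7.56 ± 1.09 for Hsp90aa1, higher in 4. In the cells highest in Hspa1a, the 18 ER chaperones and folding enzymes summed to 11.6 ± 3.73, against 12.6 ± 0.935 in the others. The mast cell markers summed to 674 ± 209 in these cells highest in Hspa1a and 790 ± 95 in the others. The keratinocyte markers summed to 45.1 ± 85.8 and 7.15 ± 9.51, of which WT mouse 2 gave 218 in its chosen cells. The macrophage markers summed to 25.2 ± 33.1 and 13.5 ± 18.6 and were higher in 3 of 6 mice, at 64.3 against 8.58 in KO mouse 3, 71.2 against 49.4 in WT mouse 2 and 4.58 against 1.07 in KO mouse 2. The part of these other cell types in the result was not tested. Without barcodes of over 30000 transcripts the keratinocyte sums were 9.08 and 3.10, and Hsp90aa1 was 39.1 ± 14.7 against 12.8 ± 2.32 and higher in 6 of 6 mice. Among the 4 mice outside the set with blood and liver background, Hsp90aa1 was 24.9 ± 9.77 against 12 ± 2.77 and higher in all 4. The 4 chosen cells of WT mouse 3 came from 1 library.
The cells highest in Hsp90aa1 gave the converse picture. In them Hspa1a was 39.5 ± 32.7 against 1.59 ± 0.749, higher in 6 of 6 mice, and Jun 75.2 ± 33.7 against 32.7 ± 6.37, also in 6 of 6. Of the 47 cells, 13 (27.7%) were among the 47 highest in Hspa1a, with at least 1 in each mouse. Hspa1a and Hspa8 shared 9 of 47 (19.1%), Hspa1a and Dnajb1 shared 2 (4.26%), and Hspa1a and Hspa5 shared 0, as did Hsp90ab1 and Dnajb1. With 47 of 2196 cells chosen for each gene, unlinked genes would also share few or no cells. Overlaps of 0 or 2 therefore do not show that these genes kept apart.
The cells highest in Hspa5 carried other ER genes, and also more of some cytosolic members. Dnajb1 was 6.32 ± 2.53 in them and 3.47 ± 0.607 in the others, higher in 6 of 6 mice, and Hsp90aa1 was 17.5 ± 7.42 and 13.3 ± 2.70, higher in 5. Fos and Dnaja1 were also higher in every mouse but WT mouse 2, for example at 63.7 against 21.6 and 16.8 against 6.71 in WT mouse 1. In WT mouse 2 they were 0 against 9.81 and 4.04 against 4.65. The summed immediate early genes were higher in WT mouse 1 and the KO mice. They were lower in WT mice 2 and 3, at 132 against 184 and 233 against 242. Higher Fos and Dnaja1 were thus not particular to cells chosen by cytosolic genes. The macrophage markers summed to 27.8 ± 64.4 and 13.8 ± 18.8, higher only in WT mouse 2, at 159 against 50.0, where the mast cell markers summed to 577 against 778. In the cells of that mouse highest in Hsp90b1 the macrophage markers summed to 168 against 49.9. The part of these markers in the result was not tested. Manf, a secreted ER stress factor, was higher in 6 of 6 mice, at 1.66 ± 0.755 against 0.552 ± 0.0781. Calr, the calcium-binding lectin chaperone, was higher in 5 (4.79 ± 2.35 against 2.00 ± 0.346), as were the disulfide isomerase Pdia6 (1.77 ± 0.949 against 0.677 ± 0.213) and Creld2 (0.813 ± 0.763 against 0.173 ± 0.0321). Hsp90b1 was 3.24, 14.8 and 0.642 in WT mice and 1.47, 9.58 and 5.25 in KO mice, against 1.56 to 2.14 in the other cells, and so was higher in 4 mice. The ER list summed to 23.6 ± 8.43 against 12.3 ± 0.967, higher in every mouse. Hspa1a was 1.45 ± 0.949 against 2.29 ± 1.24 and higher in 1 mouse, but 2.91 ± 2.67 against 1.75 ± 1.04 after thinning. In KO mouse 3 a cell of library 5 held 76.7 Hspa5 and 30.1 Hsp90b1 transcripts with no Hspa1a. In turn, the cells highest in Hsp90b1 had Hspa5 at 24.2 ± 20.3 against 7.37 ± 1.01, higher in 5 mice, and 6 of 47 (12.8%) were shared with those highest in Hspa5.
In Smoothmuscle cells the 7 cells highest in Hspa1a had Hsp90aa1 at 9.39 against 4.69 and Hspa8 at 7.92 against 6.16 in the other Smoothmuscle cells, and Hspa5 at 3.52 against 5.35. The 7 highest in Hspa5 had the ER list at 19.7 against 13.5. Their Hsp90b1, unlike that of most MC mice, was lower, at 0.961 against 2.32, as were Fos (6.25 against 11.9) and Jun (3.84 against 9.76).

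**Figure D5:**
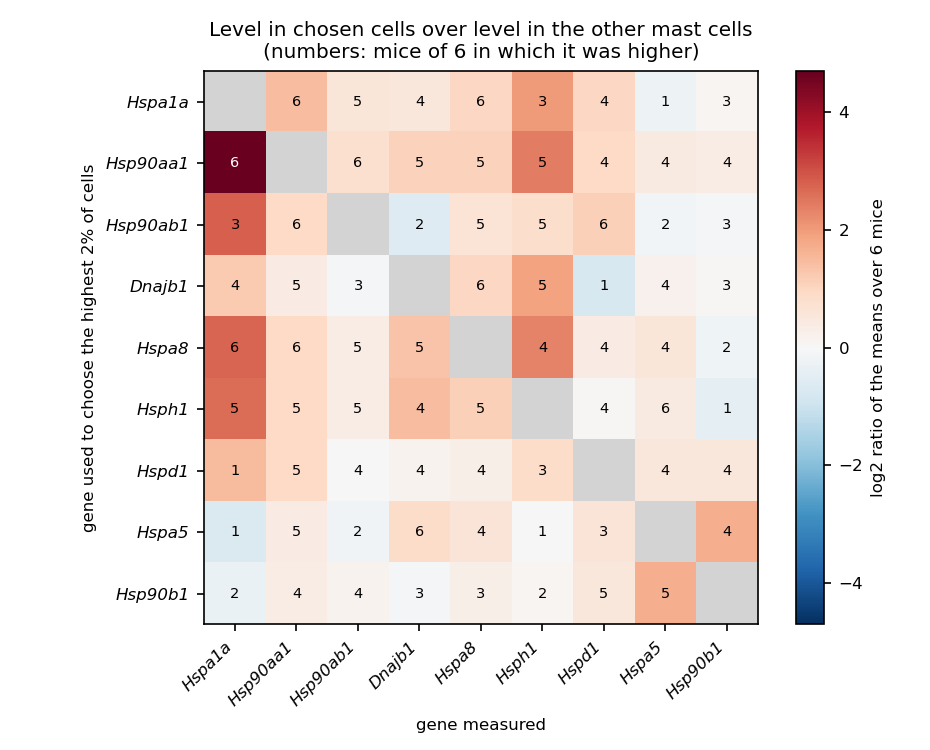
Colour gives the log2 ratio of the mean level (over 6 mice) of the gene in the column between the 2% of MCs highest in the gene of the row and the other MCs, and each number the count of the 6 mice with a higher level in the chosen cells; grey marks the gene used to choose. Rows of the cytosolic genes Hspa1a, Hsp90aa1, Hspa8 and Hsph1 are red for each other, Hspa5 and Hsp90b1 are red for each other, and some pairs cross the compartments: Hspa5 was higher in 6 of 6 mice in the cells highest in Hsph1, and in 4 in those highest in Hspa8 or Hsp90aa1.

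Across the 30 MC libraries, with each mouse's mean taken off, the genes of 1631 most like Hspa1a by Spearman's rho included Rpl34 (0.66), Rps7 (0.61), Ssb (0.61) and Tsc22d2 (0.58). For Hspa8 they were Ftl1 (0.68), Ccnl1 (0.68), Rplp1 (0.68), Rpl10-ps3 (0.66) and Pirb (0.66), and for Hspa5 Neurl3 (0.71), Fam198b (0.63), Gadd45a (0.61), Ero1l (0.61) and Bag3 (0.59). Libraries also differ in depth and Gm share, and Hspa1a itself had rho -0.41 with the Gm share on this scale. Between members the highest rho was that of Hspa8 and Hsph1 (0.57), followed by Hspa1a and Hsp90ab1 (0.50), and Hspa5 and Hsp90b1 had 0.23.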

How the data were processed

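MCs and Smoothmuscle cells were measured by mCEL-Seq2 in 34 libraries. Per the labels and the study's methods, the authors mapped reads with BWA (0.6.2-r126, submitters' processing notes, mm10) to merged gene models, discarded reads matching several loci, and converted the 6-base UMI counts to transcripts by binomial statistics, which gave the deposited values, another unit than raw counts. Values returned to whole UMIs with the formula for 4096 UMIs.

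Cells with over 1000 transcripts were kept, and a limit of 2% Kcnq1ot1 removed 0. Each table held 192 barcodes in 2 sets of 96; the set with fewer transcripts was taken as unused, although 17 of its barcodes passed the filter and were kept. The same 192 barcodes serve every library by design, and 0 kept cells were identical between libraries. Doublets were excluded at sorting and no caller was run. Cells were summed per mouse. The Python code used numpy (2.4.6), pandas (2.3.3) and scipy (1.17.1). limma (3.58.1, R 4.3.3) with trend was run on log2(transcripts per 1000000 outside Gm genes + 1), keeping genes that reached 10 transcripts in 3 or more mice, with Benjamini-Hochberg adjustment over all genes; fold changes of low genes are understated on this scale. Single genes were also tested by exact two-sided permutation. The fit was also run on simulated data without the background sets or deep barcodes of the real mice, and the outcome is not reported here. Kept cells summed to 1412797 to 6104245 transcripts per mouse. Alternatives were other denominators, filters, pseudocounts, weights and left-out mice. p-values measure the spread between mice. Named list genes were the 3 with the highest level and the 2 with the lowest p of each list; those most like Hspa1a, Hspa8 and Hspa5 were the 5 with the highest rho, of which 1 is not reported here. The members and lists were chosen with earlier results of these data known.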

Additional observations from a re-analysis of the deposited data

Results flagged for a closer look

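Of 63 groups of 4 to 10 libraries checked, 4 had a library far from the others, and chance alone flags about 1 in 20 groups. Hspa1a in WT mouse 3 was 1.79 per 10000 in library 3 and 0.495 to 0.605 in the others. Hspa8 in KO mouse 3 was 2.86 in library 8, which held the deepest barcode, and 4.53 to 5.49 in the others. In Smoothmuscle library 16, Hspa8 was 7.46 against 5.86 to 6.08 and Hsph1 0.542 against 0.165 to 0.212.

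Member transcripts were present in barcodes the libraries did not use, above the limit of 3 counts that a count of 0 allows. Summed over the 9 members, they came to 123, 167 and 168 in WT mice 1 to 3, to 106, 181 and 501 in KO mice 1 to 3, and to 228 in the Smoothmuscle libraries.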

How the results depend on the processing

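Genes called between genotypes numbered 0 in limma, but 45 with the total of all genes as denominator (which moved the median log2 difference of all genes to 0.18), 2 with the background batch block, and 0 to 15 when a mouse was left out (1 without WT mouse 1, 15 without KO mouse 1); the cause was not tested. No member was called in any of 24 alternatives. The replicate block, with the mouse number as a block, called 0 genes (lowest adjusted p 0.130, 409 genes at an unadjusted p under 0.05). Correlations of deviations between mice of the same number were 0.16, -0.21 and -0.27. So few values cannot decide whether the numbers pair the mice, and WT mouse 1 and KO mouse 1 shared a background set. No library met the rule for leaving out those dominated by macrophage or keratinocyte markers. Alternatives without deep barcodes, without the 2 libraries richest in keratinocyte markers, without barcodes of the other set, and leaving out mice in the Smoothmuscle ratios were chosen after seeing the data.

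With all genes in the denominator, the Smoothmuscle-to-MC ratio was 0.527 for Hsp90aa1, 2.40 for Hspa1a, 0.631 for Hsp90ab1, 0.994 for Hspa5 and 1.5 for Hsp90b1. That of Hspa5 ran from 0.665 (without KO mouse 3) to 0.805 when a mouse or library was left out.

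Shares of MCs with a UMI followed the depth. Thinned to 500 UMIs, the mean over 6 mice was 46.0% for Hsp90aa1, 51.5% for Hsp90ab1, 13.9% for Dnajb1, 14.9% for Hspa8, 2.88% for Hsph1, 3.41% for Hspd1, 29.0% for Hspa5 and 8.35% for Hsp90b1. At 2000 UMIs it was 84.1, 91.7, 41.1, 48.9, 8.70, 15.5, 71.9 and 27.5% in the same order, and 13.6% for Hspa1a. Without thinning it was 84.7, 89.6, 46.1, 52.1, 12.4, 21.4, 70.0 and 36.7%, and 15.8% for Hspa1a. With at least 2 UMIs it was 37.3, 42.5, 6.51, 6.13, 0.389, 0.547, 17.1 and 1.86%, and 2.38% for Hspa1a. In Smoothmuscle cells the Hspa1a share was 17.6% at 500 UMIs, 45.1% at 2000, 64.8% without thinning and 6.51% with at least 2 UMIs. Cells over 2000 transcripts gave 0.504 for Hsp90ab1, which no longer met the 2-fold limit. Under all alternatives 47 values that answer a comparison and 3 others moved beyond the replicate spread, and 576 and 251 stayed within it or on their side of the threshold. Thinning also moved Hsp90b1 in the cells highest in Hspa1a to 4.51. With 3 mice a genotype, differences within the intervals given could not be detected.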
